A study of Mus musculus with 12 samples.

Results

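The 8 genes described here encode complement components and receptors: the C1q chains C1qa, C1qb and C1qc, the central component C3, the alternative pathway factors Cfb and Cfp, and the anaphylatoxin receptors C3ar1 and C5ar1. They were chosen by gene symbol from the 40847 rows of a count table made by RNA sequencing. The rule itself used no measured value, but earlier results of these data were known when the genes were chosen. The libraries came from FLAMs, alveolar-like macrophages of mouse fetal liver, kept in mouse GM-CSF at 30 ng/ml, a growth factor that all 12 samples shared. The series asked whether the cytokine TGFβ changes how these cells answer a ligand of Toll-like receptor 2. The untreated group received GM-CSF alone, and the TGFβ group also recombinant human TGFβ1 at 20 ng/ml, kept in the medium for a time that the labels do not give. The Pam3 group received the lipopeptide Pam3CSK4 at 25 ng/ml for 18 h, and the Pam3+TGFβ group received TGFβ1 and Pam3CSK4. Each group had 3 libraries. Neither a mouse strain or age, nor whether the cells go back to a single isolation of cells, is given in the sources used here. Nothing says that the replicates were separate cultures, so the p-values measure only the spread between these samples, which may be technical.

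Complement is a cascade of plasma and tissue proteins that marks microbes and dying cells for uptake. C1q, assembled from chains of C1qa, C1qb and C1qc, starts the classical pathway when it binds antibody or other ligands, and every pathway meets at the cleavage of C3. Factor B (Cfb) joins cleaved C3 to form the convertase of the alternative pathway, properdin (Cfp) stabilises that convertase, and the fragments C3a and C5a act on cells through C3ar1 and C5ar1. Liver makes most of the plasma proteins, whereas C1q and properdin come largely from macrophages and other myeloid cells.

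Library totals ran from 34036650 to 44374115 counts, and 14749 genes had enough counts to be tested. Of 8 macrophage markers, 7 had 10 or more counts in each library of the untreated, TGFβ and Pam3 groups, and 8 in those of the Pam3+TGFβ group. Of 10 alveolar macrophage markers, 9 reached that level in each group, but with different levels: Fabp4, a lipid carrier of alveolar macrophages, had mean levels of 31.1 CPM in untreated and 0.132 CPM in TGFβ libraries, and Siglecf, a lectin that marks them, had 32.1 and 300 CPM. CPM are count rates relative to scaled library sizes, as edgeR's cpm function gives them. Of 8 hepatocyte markers, 2 had 10 or more counts throughout each group, Trf (887 to 1950 CPM by group) and Afp (5.77 to 9.27 CPM), and Ttr and Fgb had no count in any library. Of 7 fibroblast or stellate markers, Col1a2 and Lum had no count in any library, and the list summed to 0.529 to 1.61 CPM per library, mostly Pdgfra and Pdgfrb. RNAs without poly(A) tails varied from 6 to 1220 CPM in sum, most of all in untreated replicate 3, and a fit with this sum as a covariate changed no call on the 8 genes.

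Per kilobase of transcript, Cfp had the highest level of the 8 genes in untreated cells, at 285 ± 32.6 CPM per kb (SD, n = 3, as for each mean below). C3 followed at 91.5 ± 6.45 CPM per kb. C5ar1 (48.2 ± 2.15) and Cfb (42.5 ± 7.64 CPM per kb) did not differ beyond their spread. C3ar1 stood at 15.1 ± 1.43 CPM per kb, C1qb at 3.31 ± 0.446, and C1qa (1.95 ± 0.53) and C1qc (1.66 ± 0.484) again overlapped. The order differed in Pam3+TGFβ cells, where Cfb led with 196 ± 1.8 CPM per kb, before C3 with 155 ± 7.34 and Cfp with 133 ± 5.49. C5ar1 (73.9 ± 1.32 CPM per kb) stood well above C3ar1 (0.791 CPM per kb) there, and the C1q genes lay at 0.0323 CPM per kb or less. The authors' aligner does not split reads over introns, so genes with many exons can lose more reads. C3 has 41 exons and Cfb 18, against 9 for Cfp and 2 each for C3ar1 and C5ar1. The order of genes within a group was not corrected for this.

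Genes were called at an adjusted p under 0.05 in edgeR's quasi-likelihood test over all tested genes. TGFβ without Pam3 was followed by calls for 7 of the 8 genes, 1 higher (C5ar1) and 6 lower (C1qa, C1qb, C1qc, Cfb, Cfp, C3ar1), where 51% of all tested genes were called, 22.9% higher and 28.1% lower. The libraries of the groups did not overlap for those 7 genes, nor for 56.4% of all tested genes. The median log2 fold change was -2.69 for the 8 genes and -0.01 for all tested genes. In the presence of Pam3, TGFβ changed all 8, with C3, Cfb and C5ar1 higher and the other 5 lower, against 45.3% of all tested genes (21.5% higher, 23.8% lower). Groups did not overlap for any of the 8, nor for 55.1% of all tested genes. The medians were -2.77 and 0.00 (-0.002 before rounding). In Pam3+TGFβ against untreated cells the same 3 genes were called higher and the same 5 lower without overlap, where 52.1% of tested genes were called (25% higher, 27.2% lower) and 56.8% did not overlap. All 8 genes passed the filter on low counts, but the C1q genes passed it through the groups without TGFβ alone, so their calls under TGFβ could only go down. A shift in the number of cells of a type and a shift in RNA per cell cannot be told apart in bulk RNA.

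Pam3 changed 4 of the 8 genes in cells without TGFβ and 4 in cells with it. Without TGFβ, Pam3 raised C3, Cfb, C3ar1 and C5ar1 and lowered none, where 18.3% of tested genes were called (9.62% higher, 8.66% lower). The libraries did not overlap for 4 of the 8 and for 31.4% of tested genes. With TGFβ, Pam3 raised C3 and Cfb and lowered Cfp and C5ar1, where 38.5% of tested genes were called (20.4% higher, 18.1% lower), and 4 of the 8 and 50.4% of tested genes did not overlap. Over all genes these calls were 3008 higher and 2670 lower, but 2477 higher and 3489 lower with upper-quartile scaling. The medians of the 8 genes were 0.26 and 0.08 on the log2 scale, and those of all tested genes 0.00 and -0.02. The difference between these responses, the interaction, was called for C3 and Cfb (higher with TGFβ) and for C5ar1 (lower), against 15.9% of tested genes (10.3% higher, 5.67% lower). Upper-quartile scaling gave 1255 interactions higher and 1097 lower over all genes, against 1516 and 836. The comparisons share libraries, so their results are not independent of each other. The plot of log2 fold changes sets these effects side by side.

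**Figure D1:**
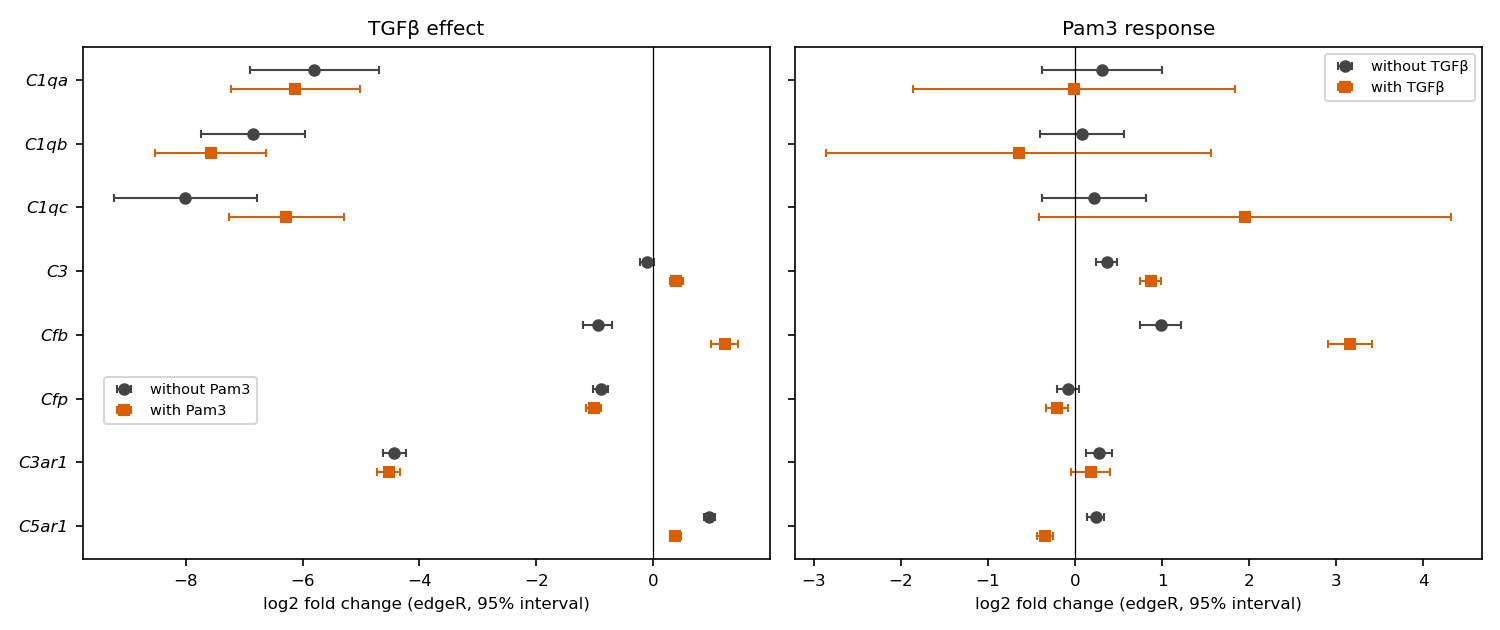
Log2 fold changes (x axis) of the 8 complement genes with TGFβ (left, without and with Pam3) and with Pam3 (right, without and with TGFβ), as points with 95% intervals from the edgeR fit (n = 3 libraries a group). The C1q genes and C3ar1 lie between -4.43 and -8.01 under TGFβ, and Cfb changes side, from -0.95 without Pam3 to 1.23 with it.

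The 3 C1q genes were all but silent in the presence of TGFβ. C1qa, C1qb and C1qc encode the A, B and C chains of C1q. They lie side by side on the minus strand of chromosome 4 in GRCm39, within 20.2 kb from 136606009 to 136626161: C1qb at chr4:136606009-136613511, C1qc at chr4:136616466-136620376 and C1qa at chr4:136623223-136626161, each protein-coding with 3 exons. C1qb had 315, 397 and 256 counts in the untreated libraries and 323, 328 and 299 in the Pam3 libraries. It had 0, 0 and 8 counts with TGFβ and 2, 3 and 0 with Pam3+TGFβ. Every library with TGFβ was thus far below every library without it. C1qa had 79, 113 and 55 counts in untreated and 118, 107 and 62 in Pam3 libraries, against 2, 2 and 0 with TGFβ and 1, 2 and 1 with Pam3+TGFβ. C1qc had 121, 163 and 75 counts in untreated and 136, 148 and 104 in Pam3 libraries, against 0, 1 and 0 with TGFβ and 0, 3 and 2 with Pam3+TGFβ. For each chain the groups with and without TGFβ did not overlap.

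Over the pooled libraries and scaled for depth, C1qb counts were 121-fold higher in untreated than in TGFβ cells (968 against 8 counts; 95% Clopper-Pearson interval 61.2 to 281). The ratio for C1qa was 61.8 (247 against 4 counts; 23.8 to 229). That for C1qc was 359 (359 counts against 1; 64.1 to 14200), an interval so wide because it rests on 1 count. In the presence of Pam3 the ratios were 205 for C1qb (950 against 5 counts; 87.5 to 632), 77.4 for C1qa (287 against 4; 29.9 to 286) and 83.7 for C1qc (388 against 5; 35.5 to 259). These intervals rest on counts pooled over the libraries of a group, so they cover counting error only and not the spread between libraries. The reads carry no molecular identifiers, so even the counting error may be understated. In the edgeR fit, C1qb fell with TGFβ (log2 fold change -6.845, SE 0.423, adjusted p 6.05e-11), as did C1qa (-5.80, SE 0.536, adjusted p 1.12e-09). The largest fitted fall was that of C1qc (-8.01, SE 0.593, adjusted p 1.7e-11). With so few counts the fitted size depends on single libraries: for C1qb it was -11.30 without TGFβ replicate 3, the library with its 8 counts, and -6.22 without TGFβ replicate 2, and for C1qc -9.85 without TGFβ replicate 2. In the presence of Pam3 the log2 fold changes with TGFβ were -7.57, -6.12 and -6.28 for C1qb, C1qa and C1qc. Without Pam3+TGFβ replicate 2 they were -8.26 for C1qb and -6.97 for C1qc, and without Pam3+TGFβ replicate 3 that of C1qb was -6.92. Limma-trend on the authors' normalized values gave smaller falls with TGFβ for C1qa (-5.10 without Pam3, -5.31 with it) and C1qc (-6.285 without Pam3).

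No answer of the C1q genes to Pam3 was called. Without TGFβ the log2 fold change was 0.31 for C1qa (95% interval -0.38 to 1.00, adjusted p 0.607), 0.08 for C1qb (-0.40 to 0.56, adjusted p 0.87) and 0.22 for C1qc (-0.38 to 0.82, adjusted p 0.689). In the presence of TGFβ the intervals were too wide to say more, such as -2.86 to 1.56 for C1qb, and a difference was not detectable at this depth. In the 6 libraries without TGFβ, each library had fewer C1qa and C1qc than C1qb counts, with geometric mean ratios of C1qa to C1qb of 0.248 in untreated and 0.291 in Pam3 cells. For C1qc to C1qb they were 0.359 and 0.404. The shifts of these log2 ratios with Pam3 were 0.23 and 0.17, and that of C1qa to C1qc was 0.06 (two-sided exact permutation tests over 20 assignments, p 0.5, 0.5 and 0.8, adjusted p 0.75, 0.75 and 0.8, where 0.1 is the smallest p possible). A non-coding gene on the other strand, Gm69251, overlaps C1qb and C1qc, and the strand setting of the counting is not given in the sources used here.

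The 4 monocyte markers of the lists, among them Ly6c2, Ccr2 and Cd177, moved in part with the C1q genes. Their summed level was 241 to 309 CPM in untreated, 33.8 to 34.4 in TGFβ, 236 to 277 in Pam3 and 52.6 to 56.3 CPM in Pam3+TGFβ libraries. Ccr2, a chemokine receptor, had means of 269, 20.3, 246 and 15.3 CPM in that order and made up most of the sum in the groups without TGFβ, while Cd177 had 1.49, 12.5, 0.985 and 12 CPM and Ly6c2 1.25, 1.39, 3.05 and 27.4 CPM. None of these 3 was at 0 in any group. The part of such cells in the fall of the C1q genes, of C3ar1 and of Itgam was not tested.

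The stretches of 250 bases before the RefSeq starts of C1qb and C1qc are shown because these genes neighbour each other and fell together. They are from GRCm38.p6, minus strand, and the capitals mark GAGGAA, the letters of a PU.1 motif, or its reverse complement. PU.1 is a transcription factor of myeloid cells.
C1qb, chr4:136886201-136886450: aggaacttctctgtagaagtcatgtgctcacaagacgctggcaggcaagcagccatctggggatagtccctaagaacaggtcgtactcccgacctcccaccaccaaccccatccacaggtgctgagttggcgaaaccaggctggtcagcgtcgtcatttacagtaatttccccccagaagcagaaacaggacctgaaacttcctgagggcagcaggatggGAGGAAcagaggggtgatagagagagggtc
C1qc, chr4:136892915-136893164: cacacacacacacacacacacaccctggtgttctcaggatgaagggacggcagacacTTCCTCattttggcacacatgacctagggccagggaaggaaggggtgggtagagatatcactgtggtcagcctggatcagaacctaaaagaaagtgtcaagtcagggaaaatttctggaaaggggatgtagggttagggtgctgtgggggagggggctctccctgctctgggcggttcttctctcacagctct
The match lies 30 to 25 bases before the start of C1qb, and on the other strand 193 to 188 bases before that of C1qc. The window of C1qc also held an NF-kappaB motif 41 to 32 bases and a SMAD motif (CAGACA) 200 to 195 bases before its start. Over 32851 windows of the same length, 23.3% held GAGGAA, 7.25% the NF-kappaB motif and 17.1% CAGACA on either strand. A match describes the letters of a window and is no site of binding.

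C3 and Cfb, whose products make up the alternative pathway convertase, were the genes of the 8 with a called interaction above 0, a higher answer to Pam3 with TGFβ than without. Cfb lies on chromosome 17 (chr17:35074852-35081559, minus strand, 18 exons). It had 115, 166 and 146 CPM in untreated libraries, 69.9, 78.1 and 73 with TGFβ, 288, 287 and 268 with Pam3 and 664, 656 and 652 with Pam3+TGFβ. No group overlapped another, as the plot of CPM by library shows. Without Pam3, TGFβ lowered Cfb by 1.93-fold (log2 fold change -0.95, SE 0.108, adjusted p 2.87e-05). With Pam3, TGFβ raised it by 2.34-fold (log2 fold change 1.23, SE 0.106, adjusted p 3.45e-06). The direction of the TGFβ effect on Cfb thus depended on Pam3. The Pam3 response was 1.97-fold without TGFβ (log2 fold change 0.98, SE 0.107, adjusted p 8.72e-05) and 8.92-fold with it (3.16, SE 0.115, adjusted p 2.76e-09). The difference of the log2 responses was 2.18 (SE 0.152, adjusted p 2.87e-06).

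Counting adds a limit for Cfb. Nelfe, a gene on the plus strand at chr17:35068650-35078716, shares 3865 bases of the locus with Cfb and had 1096 to 2262 counts per library, and the readthrough gene Gm20547 overlaps Cfb on its own strand. C2, whose product takes the place of factor B in the classical pathway, lies upstream of Cfb on the same strand, and its 3′ end is 19 bases from the start of Cfb. It had 4 counts in the TGFβ libraries and 50 in the Pam3+TGFβ libraries in sum (log2 fold change 3.48, SE 0.844, adjusted p 0.00172). Without TGFβ replicate 2 this value for C2 was 2.88, and with limma-trend on the normalized values 2.83. C2 reached 10 counts in libraries with Pam3 alone or with Pam3+TGFβ and in no other, so it passed the filter through libraries with Pam3, and its call with Pam3 could only be higher. The share of C2 counts that are reads of Cfb was not tested.

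C3 (chr17:57510964-57535155, minus strand, 41 exons) had 435, 498 and 484 CPM in untreated and 415, 460 and 442 CPM in TGFβ libraries, ranges that overlapped. It had 605, 590 and 624 CPM with Pam3 and 813, 759 and 832 CPM with Pam3+TGFβ. All libraries with Pam3 were above all without it, and those with Pam3+TGFβ above those with Pam3 alone. TGFβ by itself gave a log2 fold change of -0.11 for C3 (95% interval -0.22 to 0.01, adjusted p 0.126), which passed the threshold without untreated replicate 1 (-0.14, adjusted p 0.0481). Pam3 raised C3 by 1.28-fold without TGFβ (log2 fold change 0.36, SE 0.0564, adjusted p 3.25e-05) and by 1.82-fold with it (0.87, SE 0.0568, adjusted p 2.39e-12). The interaction was 0.51 (SE 0.0797, adjusted p 3.9e-05), against 2.18 for Cfb. On the plus strand, the non-coding gene Gm65552 overlaps C3.

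The 250 bases before the start of C3 are shown for the C/EBP motif close to the start, TTGCNNAA in capitals, 45 to 38 bases before it (GRCm38.p6, minus strand). C/EBP factors act in myeloid and liver cells. The same letters were found in 9.56% of all windows.
C3, chr17:57228137-57228386: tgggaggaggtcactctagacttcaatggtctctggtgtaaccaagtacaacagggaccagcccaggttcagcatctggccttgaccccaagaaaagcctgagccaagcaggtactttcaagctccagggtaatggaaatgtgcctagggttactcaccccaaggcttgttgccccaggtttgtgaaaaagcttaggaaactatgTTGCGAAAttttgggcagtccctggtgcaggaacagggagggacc
None of the other 6 motifs searched was found there. These were the NF-kappaB, PU.1 and SMAD motifs above, AP-1 (TGANTCA, in 6.75% of windows), GAS (TTCNNNGAA, 7.02%) and ISRE (GAAA repeated after 2 bases, 2.98%), each on both strands.

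**Figure D2:**
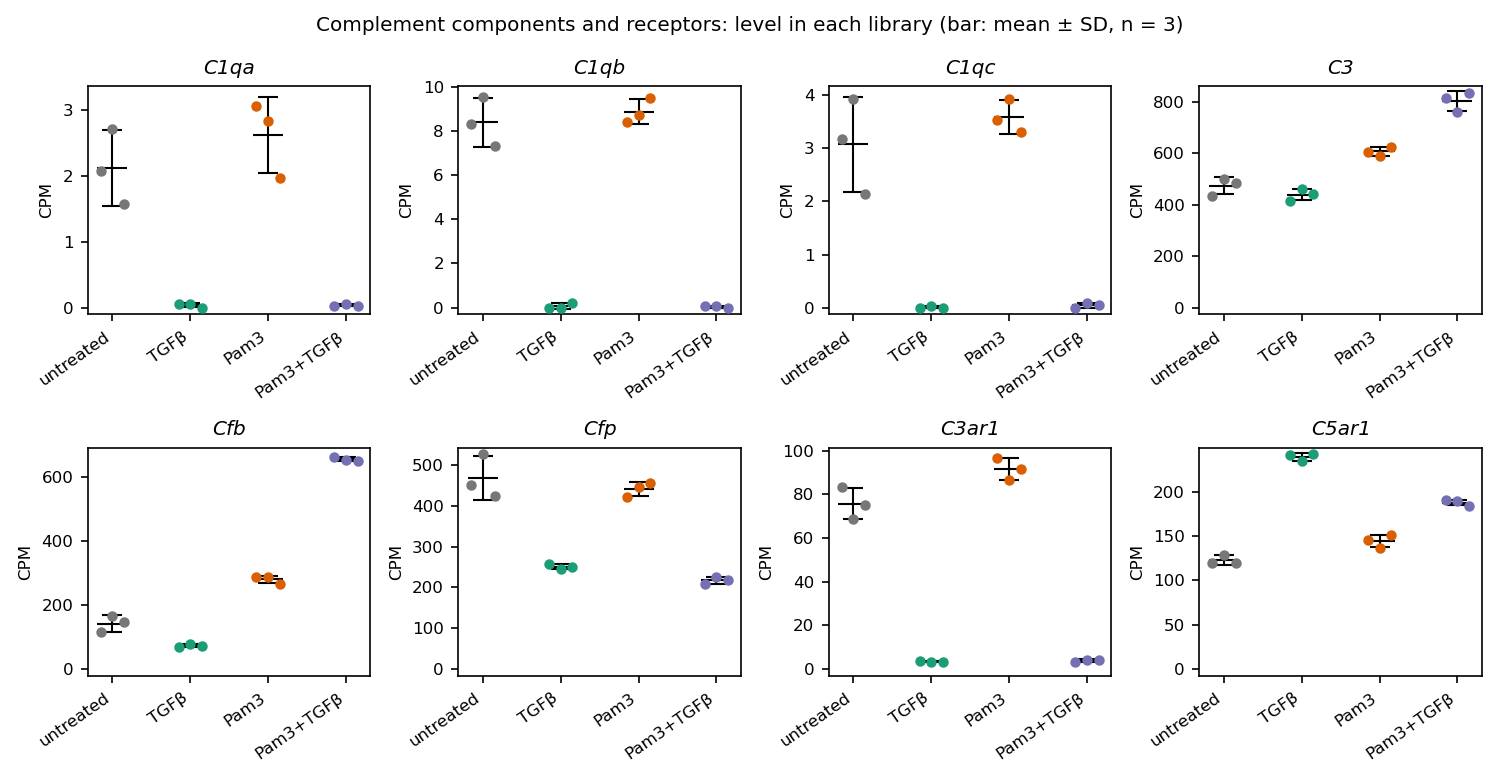
CPM of each of the 8 genes (a panel each, linear y axes of different range) by group, with 1 point per library and bars for the mean ± SD (n = 3). The C1q genes and C3ar1 separate by TGFβ, and Cfb is highest in the Pam3+TGFβ libraries at 652 to 664 CPM.

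Cfp, which encodes properdin, fell with TGFβ whether or not Pam3 was present. It lies at chrX:20791688-20797794 (minus strand, 9 exons). Its levels were 452, 527 and 423 CPM in untreated and 422, 446 and 455 CPM in Pam3 libraries. With TGFβ they were 257, 245 and 251 CPM, and with Pam3+TGFβ 208, 226 and 218 CPM. The groups with TGFβ were below those without in every library, and the untreated and Pam3 groups overlapped. TGFβ lowered Cfp by 1.86-fold without Pam3 (log2 fold change -0.90, SE 0.0604, adjusted p 1.06e-11) and by 2.02-fold with it (-1.02, SE 0.0606, adjusted p 1.37e-12). The response of Cfp to Pam3 was -0.08 without TGFβ (95% interval -0.21 to 0.04, adjusted p 0.388) and -0.21 with it (SE 0.0602, adjusted p 0.00875). The difference of -0.12 between these responses was not called (adjusted p 0.409), but was -0.21 with an adjusted p of 0.021 without untreated replicate 2. The non-coding gene Gm61816 overlaps Cfp on the other strand.

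The receptors for C3a and C5a went opposite ways with TGFβ. C3ar1, the receptor of C3a (chr6:122823393-122833122, minus strand, 2 exons), had 83.2, 68.9 and 75.1 CPM in untreated and 96.8, 86.8 and 91.4 CPM in Pam3 libraries. It had 3.71, 3.46 and 3.38 CPM with TGFβ and 3.35, 4.36 and 4.18 CPM with Pam3+TGFβ. Every library with TGFβ was far below every library without it. TGFβ lowered C3ar1 by 21.5-fold without Pam3 (log2 fold change -4.43, SE 0.094, adjusted p 1.88e-22) and by 23-fold with it (-4.53, SE 0.0929, adjusted p 1.64e-22). Pam3 raised it without TGFβ by 0.28 (SE 0.0735, adjusted p 0.00889), a call lost without Pam3 replicate 1 (0.24, adjusted p 0.0723). With TGFβ the response of C3ar1 to Pam3 was 0.18 (95% interval -0.05 to 0.40, adjusted p 0.209), and the difference from that without TGFβ was -0.10 (adjusted p 0.718).

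The 250 bases before the start of C3ar1 are shown because its fall was the largest among the members with ample counts in every group (GRCm38.p6, minus strand). The capitals mark an AP-1 motif, TGANTCA, which lies 22 to 16 bases before the start. AP-1 is a family of factors that many receptors activate.
C3ar1, chr6:122856158-122856407: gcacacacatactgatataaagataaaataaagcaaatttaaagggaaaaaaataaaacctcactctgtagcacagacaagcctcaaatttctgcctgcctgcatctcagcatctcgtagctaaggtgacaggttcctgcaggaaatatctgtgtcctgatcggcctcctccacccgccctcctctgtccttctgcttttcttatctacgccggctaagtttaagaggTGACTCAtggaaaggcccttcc
A SMAD motif lies 177 to 172 bases before the start of C3ar1. None of the 7 motifs was found in the windows of Cfp and C5ar1.

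C5ar1, the receptor of C5a (chr7:15980668-15993465, minus strand, 2 exons), had 120, 129 and 119 CPM in untreated libraries and 241, 234 and 242 CPM with TGFβ. It had 145, 137 and 151 CPM with Pam3 and 190, 189 and 184 CPM with Pam3+TGFβ. The 4 groups did not overlap, and the Pam3+TGFβ libraries lay between those with Pam3 and those with TGFβ alone. TGFβ raised C5ar1 by 1.95-fold without Pam3 (log2 fold change 0.96, SE 0.0466, adjusted p 3.45e-15) and by 1.3-fold with it (0.38, SE 0.0463, adjusted p 1.63e-07). Pam3 raised it by 0.24 without TGFβ (SE 0.0465, adjusted p 0.000556) and lowered it by 1.27-fold with TGFβ (-0.35, SE 0.046, adjusted p 9.15e-07). The interaction was -0.58 (SE 0.0654, adjusted p 2.5e-07), so the sign of the Pam3 response of C5ar1 depended on TGFβ.

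Ratios of counts within a library, not corrected for gene length, do not depend on the scaling between libraries, and the plot of within-library ratios shows them per library. The geometric mean of C3ar1 to C5ar1 was 0.617 in untreated and 0.636 in Pam3 cells, against 0.0147 with TGFβ and 0.021 with Pam3+TGFβ. TGFβ shifted this log2 ratio by -5.16 (-5.39 without and -4.92 with Pam3; two-sided exact permutation test within the Pam3 strata, p 0.005, adjusted p 0.01 over 6 tests, with 0.005 the smallest p that 400 assignments can give). For Pam3 the shift of C3ar1 to C5ar1 was 0.28 on average, 0.043 without and 0.512 with TGFβ (p 0.04, adjusted p 0.06 in the same exact test). This average shift passed without untreated replicate 1 (0.32, adjusted p 0.03). The ratio of C3 to Cfb counts was 3.35 in untreated, 5.96 in TGFβ, 2.16 in Pam3 and 1.22 in Pam3+TGFβ cells. Pam3 shifted the log2 ratio of C3 to Cfb by -1.46 (-0.64 without and -2.29 with TGFβ; exact permutation p 0.005, adjusted p 0.01). TGFβ shifted it by 0.83 without Pam3 and by -0.83 with it, which average to 0.00 (exact permutation p 0.975). The ratio of Cfb to Cfp was 0.302 in untreated, 0.293 in TGFβ and 0.637 in Pam3 cells, and Cfb counts exceeded those of Cfp with Pam3+TGFβ alone (3.02). Pam3 shifted Cfb to Cfp by 2.22 on average, 1.076 without and 3.365 with TGFβ (exact permutation p 0.005, adjusted p 0.01). The shift of Cfb to Cfp with TGFβ was 1.10, -0.04 without and 2.25 with Pam3 (exact permutation p 0.065, adjusted p 0.078).

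**Figure D3:**
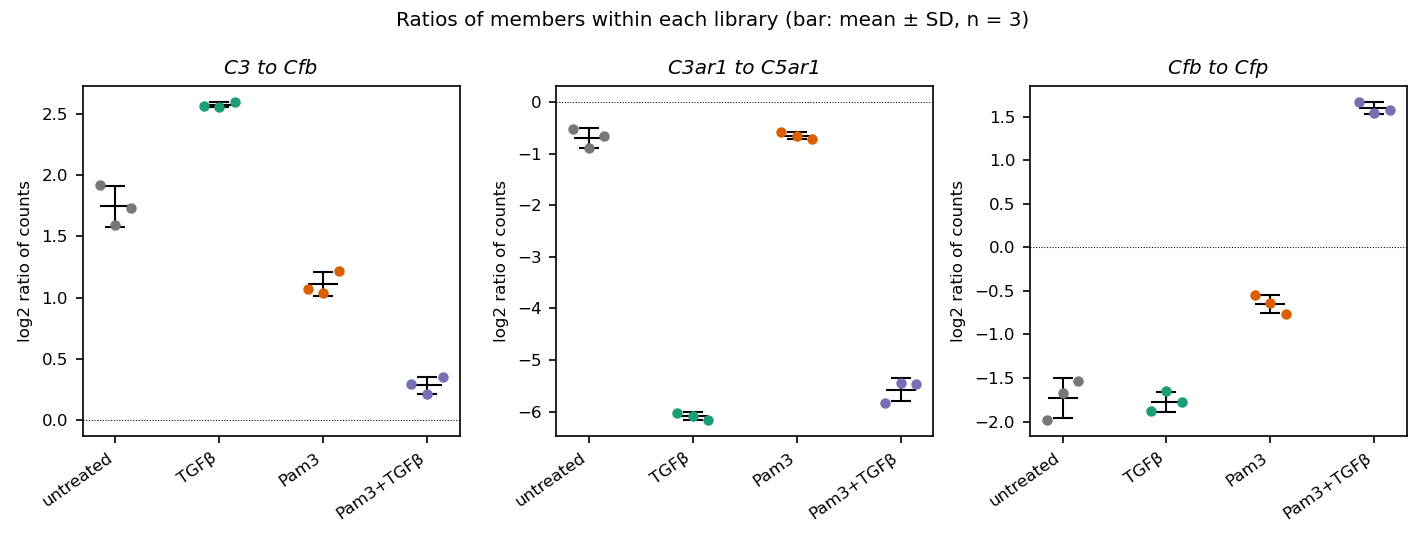
Within-library log2 ratios of counts (y axis) of C3 to Cfb, C3ar1 to C5ar1 and Cfb to Cfp by group, with 1 point per library and bars for the mean ± SD (n = 3). The C3ar1 to C5ar1 means drop from -0.70 in untreated to -6.09 in TGFβ libraries, and the Cfb to Cfp means are above 0 in the Pam3+TGFβ libraries alone (1.59, or 1.595 before rounding).

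Beyond the 8 genes, 53 other complement genes were listed by role. All were in the table, 14 of them had no count, 21 had at most 3 counts in every library, and 26 were tested. TGFβ without Pam3 changed 18 of the 26, 3 higher and 15 lower, and TGFβ with Pam3 changed 15, 4 higher and 11 lower, where 51% and 45.3% of all tested genes were called. The medians were -0.73 and -0.24 on the log2 scale and stay the same with Cfhr2 at its bound, which lies on the same side of them. Pam3 changed 8 of the 26 without TGFβ (4 higher, 4 lower) and 11 with it (8 higher, 3 lower), against 18.3% and 38.5% of all tested genes. The interaction was called for 8, of which 7 were higher and 1 (C5ar2) lower, against 15.9% of all tested genes. Terminal components were nearly absent, with 4 of 7 without a count and 1 tested, as was Cfd, the protease that activates factor B, at 3 counts or fewer in every library.

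Among 13 initiators of the classical and lectin pathways, 7 were tested. TGFβ without Pam3 lowered C1ra, C1rb, C1s1, Colec12 and Fcna, and with Pam3 it lowered C1ra, Colec12 and Fcna. Fcna, a ficolin that binds microbial sugars, had 6.55 ± 0.902 CPM in untreated and 0.512 ± 0.0601 CPM in TGFβ cells (log2 fold change -3.67, SE 0.288, adjusted p 1.27e-10). In the presence of Pam3 it went from 6.24 to 0.394 CPM (-3.97, adjusted p 7.71e-11), and this was -4.76 without Pam3+TGFβ replicate 2. Its relative Fcnb, named after its values were seen, was the initiator called higher with TGFβ in either setting, at low counts: 0 in untreated, 32 in TGFβ, 3 in Pam3 and 37 in Pam3+TGFβ libraries in sum. It passed the filter through the groups with TGFβ, so these calls could only be higher.

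C1r and C1s are the proteases of the C1 complex that act once C1q has bound. C1s1 had 0.714 ± 0.15 CPM in untreated, 0.319 ± 0.158 in TGFβ, 1.42 ± 0.125 in Pam3 and 2.27 ± 0.0569 CPM in Pam3+TGFβ cells. In Pam3+TGFβ against untreated cells C1s1 was higher (1.67, adjusted p 0.000172), whereas the C1q genes were lower. Its answer to Pam3 was 2.83 with TGFβ (SE 0.368, adjusted p 6.82e-07) and differed by 1.84 from that without (SE 0.501, adjusted p 0.0113). Its Pam3 call without TGFβ (0.99, adjusted p 0.0448) was lost without any library of the Pam3 or Pam3+TGFβ groups, or without untreated replicate 1 or 2, at adjusted p values of 0.0628 to 0.138, and with no filter (0.077) or a fit of the 6 libraries compared (0.0631). The TGFβ call on C1s1 without Pam3 (-1.16, adjusted p 0.0136) was lost without TGFβ replicate 2 or 3 or untreated replicate 3 (adjusted p 0.0528 to 0.0798), and in a fit of the 6 libraries compared (0.0696). C1ra had 31.2, 17.8, 37.2 and 32 CPM in the same order of groups, with an interaction of 0.60 (SE 0.114, adjusted p 0.000445). Its weaker calls, with Pam3 in the absence of TGFβ (0.26, adjusted p 0.0259) and with TGFβ in the presence of Pam3 (-0.22, adjusted p 0.0293), were each lost without single libraries. For the former these were Pam3 replicates 2 and 3 and untreated replicates 1 and 3 (adjusted p 0.0503 to 0.152), and for the latter Pam3 replicates 2 and 3 and any Pam3+TGFβ library (0.0559 to 0.139). C1rb had 5.93, 3.77, 7.12 and 6.69 CPM and an interaction of 0.56 (adjusted p 0.0385). That call was lost without any TGFβ library, Pam3 replicate 1 or 2, Pam3+TGFβ replicate 2 or 3, or untreated replicate 2 or 3 (adjusted p 0.0582 to 0.126), and with upper-quartile scaling (0.0613), no filter (0.0502) or the covariate for RNAs that lack poly(A) tails (0.0509). C1s2 stayed at or under 0.452 CPM in every library, and its call in Pam3+TGFβ against untreated cells (2.37, adjusted p 0.0346) was lost without either untreated replicate 1 or 2 or any Pam3+TGFβ library (adjusted p 0.0514 to 0.145). Without untreated replicate 3, the one with C1s2 counts, its value was 6.705. C1s2 reached 10 counts in treated libraries alone and passed the filter through them, so its call against untreated cells could only be higher. C1ra and C1rb, and C1s1 and C1s2, are close copies of each other, so their split of reads is uncertain. Colec12, a scavenger receptor with a collectin domain, fell with TGFβ by 0.88 (324 to 175 CPM, SE 0.0441, adjusted p 6.3e-15).

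Of the early components, C4b fell with TGFβ, at group means of 0.652 CPM or less, without Pam3 (log2 fold change -2.60, adjusted p 0.0019) and with it (-3.43, adjusted p 0.000556). These were -3.22 without TGFβ replicate 3 and -4.12 without Pam3+TGFβ replicate 2. C4b had 1 to 7 counts in each library with TGFβ and passed the filter through the groups without it, so its calls could only be lower. C4a had 1.3 CPM in untreated and 0.447 CPM in Pam3+TGFβ cells (-1.53, adjusted p 0.00347), a call lost without untreated replicate 3 (adjusted p 0.0518), and its reads cannot be fully separated from those of C4b.

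Of 11 receptors 9 were tested. TGFβ without Pam3 changed 7, C5ar2 and C1qbp higher and Itgam, Itgax, Itgb2, Cd93 and Cr1l lower, where 51% of all tested genes were called. C5ar2, the other receptor of C5a, lies 2547 bases from C5ar1 and had 9.46 ± 0.513 CPM in untreated, 58.4 ± 2.01 in TGFβ, 6.44 ± 0.289 in Pam3 and 23.4 ± 2.67 CPM in Pam3+TGFβ cells. It rose with TGFβ by 2.63 (SE 0.0882, adjusted p 2.08e-18), against 0.96 for C5ar1, and Pam3 lowered it by 1.32 in the presence of TGFβ (interaction -0.76, SE 0.125, adjusted p 7.34e-05). C5ar1 and C5ar2 were thus both raised by TGFβ and lowered by Pam3 in its presence, whereas without TGFβ Pam3 lowered C5ar2 (-0.56, adjusted p 0.000103) and raised C5ar1 (0.24).

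Itgam and Itgax encode the alpha chains of complement receptors 3 and 4, which bind fragments of C3. Itgam went from 1090 ± 49.6 to 38.8 ± 1.9 CPM with TGFβ (log2 fold change -4.81, SE 0.0677, adjusted p 2.32e-25). With Pam3 present it went from 1280 ± 44.8 to 101 ± 7.95 CPM (-3.66, adjusted p 7.98e-24), an interaction of 1.15 (SE 0.0823, adjusted p 9.64e-11). Itgax, also an alveolar macrophage marker, fell from 335 to 168 CPM (-0.998, SE 0.0441, adjusted p 5.55e-16), and by 0.47 with Pam3 present (376 to 272 CPM; interaction 0.53, adjusted p 4.87e-07). Cd93, once described as a C1q receptor, fell with TGFβ from 506 to 35 CPM (-3.85, SE 0.0604, adjusted p 3.86e-24), and with Pam3 from 352 to 25 CPM (-3.82). Calr, a chaperone that also binds C1q, had an interaction of 0.25 (adjusted p 0.0269), a call lost with upper-quartile scaling (0.21, adjusted p 0.0743) and without 4 single libraries (Pam3 replicate 2, Pam3+TGFβ replicates 1 and 3, TGFβ replicate 3; adjusted p 0.0582 to 0.129).

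Most of 18 regulators were not measurable, with 12 at 3 counts or fewer in every library. Of 6 tested, 4 fell with TGFβ without Pam3, among them Cfhr2, Cd59a and Cd59b, where 28.1% of all tested genes were called lower. The plot of the other complement genes shows regulators beside the rest. Cfhr2 had 65 counts in untreated libraries and none with TGFβ. The fall was at least 17.1-fold by the lower 95% Clopper-Pearson limit scaled for depth, and 21.7-fold against a floor of 3 counts over the group. That limit rests on pooled counts and does not cover the spread between libraries. Cfhr2 had 82 counts with Pam3 against 4 with Pam3+TGFβ (ratio 22.1, 95% Clopper-Pearson interval 8.31 to 83). With Pam3 present its log2 fold change with TGFβ was -4.29, but -5.52 without Pam3+TGFβ replicate 2, which holds 3 of the 4 counts, -3.67 without Pam3+TGFβ replicate 3, and -3.59 with limma-trend on the normalized values. Cfhr2 passed the filter through the groups without TGFβ, so its call could only be lower. Cd59b, a membrane protein that blocks the terminal complex, fell with TGFβ without Pam3 (log2 fold change -1.48, adjusted p 0.00546), and had -0.80 with Pam3 (adjusted p 0.143, not called). Cfhr2 has close relatives, and Cd59a and Cd59b share sequence, so their counts are uncertain.

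**Figure D4:**
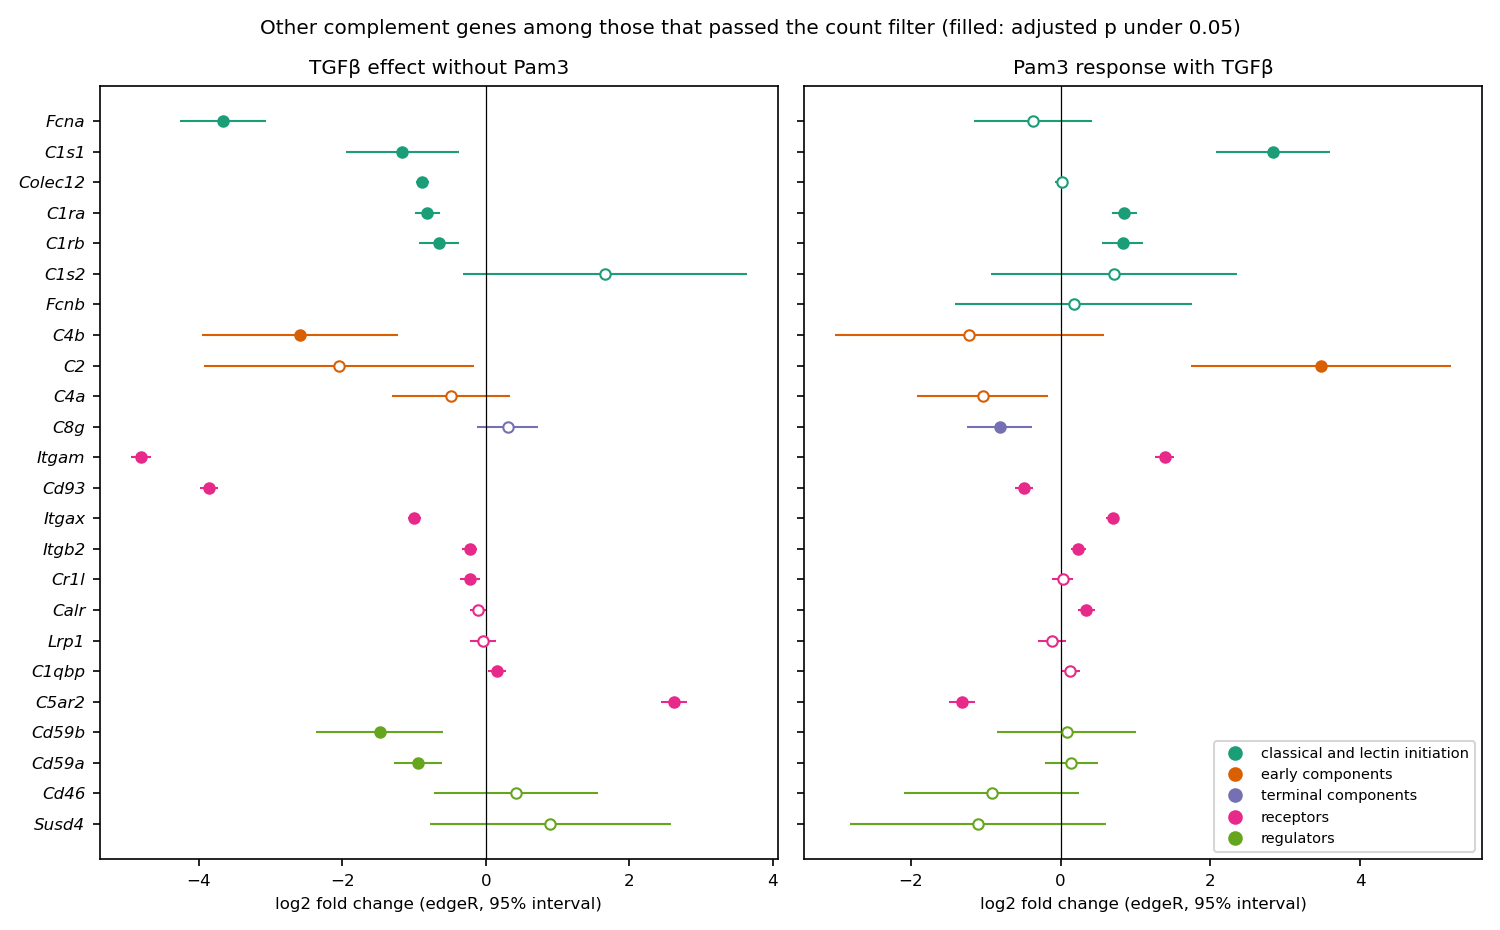
Log2 fold changes with 95% intervals (x axis) of 24 of the 26 tested complement genes outside the 8, coloured by role, with TGFβ in the absence of Pam3 (left) and with Pam3 in TGFβ cells (right); filled points have an adjusted p under 0.05, and the point of Fcnb on the left, which rests on a group mean of 0, is left out. Itgam (-4.81) and Cd93 (-3.85) lie far below 0 on the left and C5ar2 (2.63) above it, while on the right C1s1 (2.83) is high and C5ar2 (-1.32) is the lowest of the filled points.

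The nearest tested protein-coding genes beside the members were looked at in the contrast in which each member changed most. Untested genes may lie between. On the sides of the C1q genes these were Zbtb40, 80882 bases from C1qa, and Kdm1a, 275903 bases from C1qb. With TGFβ in the presence of Pam3, they rose (0.30, adjusted p 0.00648, and 0.27, adjusted p 0.000921) while the C1q genes fell. Foxj2, 1061 bases from C3ar1, had -0.05 (adjusted p 0.525) and Necap1 on the other side fell by 0.40 (adjusted p 8.66e-06). Gpr108 and Tnfsf14 beside C3 had -0.06 and 0.19 with Pam3 in the presence of TGFβ (adjusted p 0.476 and 0.57). Elk1, 297 bases from Cfp, fell by 0.27 (adjusted p 0.000504) and Syn1 by 1.56 (adjusted p 6.32e-10) in Pam3+TGFβ against untreated cells.

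As a description, genes among the 2 with the most similar pattern over the 12 libraries (Pearson r of log2(CPM + 1) among genes with a mean of at least 8 CPM) were S100a6 for C1qb (0.997), Cd48 for C1qa (0.991) and Litaf for C1qc (0.994). They were Slc7a11 for C3 (0.991), Tnip1 for Cfb (0.996), Pkdcc for Cfp (0.997), St3gal5 for C3ar1 (0.998) and P2ry2 for C5ar1 (0.984). St3gal5 had 33.6, 0.933, 39.1 and 0.918 CPM in untreated, TGFβ, Pam3 and Pam3+TGFβ cells. Pearson r does not measure the size of a change. From untreated to TGFβ cells S100a6 went from 85.9 to 1.46 CPM, but Cd48 only from 126 to 77.4 CPM and Litaf from 350 to 150 CPM. The 12 points share 4 group means, which set most of these values.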

How the data were processed

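Polyadenylated RNA of 12 FLAM samples was sequenced from stranded mRNA libraries, per the labels' protocols. Per the submitters' processing notes, the authors aligned reads to GRCm39 with Bowtie2 2.4.1, counted them with featureCounts of Subread 2.0.0 and used DESeq2 1.36.0. The annotation and strand setting of the counting are not given in the sources used here. Bowtie2 does not split reads over introns, so reads across exon junctions of genes with many exons, such as C3 and Cfb, can be lost.

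The deposited raw counts are whole reads per gene symbol, and 17090 of 40847 rows hold none. The deposited normalized values are a signal that the authors scaled per library, and were used in 1 alternative only. No library looked like a copy of another of its group: the chi-square between replicates was 9.99 to 220 times its degrees of freedom.

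Genes were kept with filterByExpr at a minimum count of 10, scaled with TMM and tested with edgeR 4.0.16 (quasi-likelihood, robust) in R 4.3.3, on all 12 libraries with 4 group means, and Benjamini-Hochberg adjustment over 14749 genes. Each adjusted p of a gene comes from this test, and the SE is the size of the log2 fold change over the square root of F. Levels are edgeR CPM with TMM-scaled sizes, divided by the length of the Ensembl-canonical transcript in GENCODE M39 where given per kb. Gene positions are from that annotation of GRCm39. Promoters are RefSeq sequences of GRCm38.p6, matched by symbol for 6 of the 8 genes (not C1qa and Cfb). The ratio tests permute 1 treatment within strata of the other. Those of the C1q genes used the 6 libraries without TGFβ, since the others hold zeros, in place of the 12 planned.

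The members, lists and tests were chosen with earlier results of these data known. The text names all 8 genes and, of the other complement genes, those that a rule picked by role (called with a log2 change of at least 1, or with a called interaction, and 10 or more counts throughout the higher group) unless stated; some items are not reported here. The fit was tested on simulated counts. Alternatives were size factors of the DESeq2 type, upper-quartile scaling, DESeq2 1.42.0, limma-trend (limma 3.58.1) on log2 of the normalized values with a pseudocount of 1, dropping the filter, asking 10 counts of all libraries, the replicate number as a block, fits of the 6 libraries compared and omission of single libraries. After the data were seen, the summed level of RNAs that lack poly(A) tails was added as a covariate.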

Additional observations from a re-analysis of the deposited data

Results flagged for a closer look

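For 11 of the genes described above, the response to Pam3 differed between cells with and without TGFβ by the interaction test of edgeR (adjusted p under 0.05, n = 3 libraries a group). Called were 2 higher and 1 lower of the 8 members, and 7 higher and 1 lower of the 26 other complement genes tested. Of all tested genes, 15.9% were called. A called interaction was also one ground for naming genes outside the 8, so the 11 were in part picked by this test. Among the members the genes called were Cfb (2.18 on the log2 scale), C3 (0.51) and C5ar1 (-0.58), where a positive value is a higher response with TGFβ. Cfb and C3 rose with Pam3 in both settings, whereas C5ar1 rose without TGFβ and fell with it. Of the other complement genes, the integrin chains Itgam (1.15) and Itgax (0.53) and the C1q-binding chaperone Calr (0.25) had higher responses with TGFβ. The initiators C1s1 (1.84), C1ra (0.60), C1rb (0.56) and Colec12 (0.25) also did. C5ar2 was called lower (-0.76), the same side as its neighbour C5ar1. The calls for C1rb and Calr were lost under some alternatives, as given above.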

How the results depend on the processing

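Every called effect of TGFβ on the 8 genes kept its direction and its call in each alternative that tested the gene. When 10 or more counts were asked of all libraries, the C1q genes were not tested, so 4 members were called for TGFβ without Pam3, 5 with Pam3 and 5 in Pam3+TGFβ against untreated cells. Over the members, leaving out single libraries gave 564 values with the same call and direction, and 12 that changed: 9 of uncalled effects changed sign, 2 were newly called and 1 was lost. The sign changes were in small or uncalled effects: the response to Pam3 without TGFβ of C1qb (-0.012 to 0.187) and Cfp (-0.153 to 0.012), that with TGFβ of C1qa (-0.57 to 0.38) and C1qb (-1.36 to 3.81), and the interaction of C1qa (-0.881 to 0.073) and C1qb (-1.44 to 3.73). The highest values for C1qb came without TGFβ replicate 3. Tnfsf14 ran from -0.039, without TGFβ replicate 3, to 0.456. The shift of C1qa to C1qc with Pam3 ran from -0.077 to 0.194, that of C3 to Cfb with TGFβ from -0.037 to 0.046, and that of C3ar1 to C5ar1 with Pam3 from 0.23 to 0.34. Limma-trend on the normalized values turned the response to Pam3 with TGFβ of C1qa (0.11) and C1qb (0.13) and the interaction of C1qb (0.041), and the replicate block turned that response of C1qa (0.027), none called.

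With the replicate number as a block, the same number of members was called in each contrast, and the calls over all genes were 2751, 5714, 7562, 6736 and 2393 for Pam3 without and with TGFβ, TGFβ without and with Pam3, and the interaction, against 2697, 5678, 7518, 6679 and 2352. Among the other complement genes named, the block ended the Pam3 call on C1s1 without TGFβ (0.99, adjusted p 0.05) and no other. The ratio tests by paired sign flips gave no adjusted p below 0.0625, which 3 of the 6 tests reached at the smallest p that the flips of 6 pairs allow: the shifts of C3 to Cfb (-1.46) and Cfb to Cfp (2.22) with Pam3 and of C3ar1 to C5ar1 (-5.16) with TGFβ kept their values and no longer passed. The labels do not say that a number pairs libraries, and not every pair correlated: 9 of 18 same-number pairs of libraries had deviations that correlated at over 0.1 (-0.286 to 0.428), all 6 pairs of replicates 3 were positive, and 5 of 12 libraries correlated best with their own number. Scaling moved the median of all genes by at most 0.06 in size (-0.062). Depth limits the C1q genes under TGFβ, where counts of 0 to 8 per library set only a wide interval.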
